A study of Mus musculus with 2 samples.

Results

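Acta2, Tagln, Myh11, Myl9, Tpm1, Tpm2, Cnn1 and Des code for the contractile apparatus of mural cells, the smooth muscle cells and pericytes that wrap blood vessels. They were picked by gene symbol, and all 8 were found among the 27998 gene IDs of each library. They were followed through the cell classes of the lung and between lung cells that carried a Cherry label and lung cells that did not. Single-cell RNA sequencing (Chromium 3′ libraries) was done on CD45- cells, which lack the leukocyte surface protein CD45, sorted from dissociated mouse lungs 7 days after labelling 4T1 cells were given into the bloodstream. 4T1 cells, a mouse mammary carcinoma line, seed lung metastases, and the labelling version releases a Cherry protein that is taken up by cells nearby. The groups are Cherry_positive, the cells with the label, and Cherry_negative, the cells without it. Each group is 1 library, the sample labels name no strain, age or number of mice, and they do not say whether these lungs were irradiated, although the series title concerns radiation.

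With 1 library per group there is no replicate, so no difference below carries a p-value. Intervals in brackets are 95% exact intervals and cover counting error only. The unit is the unique molecular identifier (UMI), 1 counted RNA molecule, and levels are in CPM, a gene's UMIs scaled by all UMIs of the cells of a class. The Cherry_positive library held 1826 barcodes with a median of 4324 UMIs, and the Cherry_negative library 2861 with a median of 2971. After filtering, 1766 and 2804 cells remained, and 13 barcodes occurred in both libraries. The 8 genes made up 0.221% of all Cherry_positive UMIs and 0.0987% of all Cherry_negative UMIs.

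Contraction of smooth muscle rests on actin filaments sliding along myosin filaments. Acta2 codes for smooth muscle alpha-actin, and Tpm1 and Tpm2 for tropomyosins, which lie along the actin filament. Cnn1 (calponin) and Tagln (transgelin) bind actin. Myh11 is the smooth muscle myosin heavy chain and Myl9 a regulatory light chain whose phosphorylation starts contraction. Des is desmin, the intermediate filament of muscle cells and of many pericytes. Acta2 and Tagln are also made by myofibroblasts, the contractile fibroblasts of alveolar ducts and of wound repair, so they do not mark mural cells alone.

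Cells were grouped without using these 8 genes or 90 further contractile genes. Classes were then named from markers outside the 8 genes. Some of the 90 served as such markers, namely Rgs4, Rgs5, Notch3, Pdgfrb, Pdgfra, Kcnk3, Ednrb and Itga8. All class names below mean cells like the named type. Smooth muscle cells numbered 3 (Cherry_positive) and 18 (Cherry_negative), myofibroblasts 247 and 134, pericytes 62 and 50, alveolar fibroblasts 872 and 466, and adventitial fibroblasts 127 and 114. The smooth muscle cluster was led by Actc1, which is not among the 8 genes, and then by Cnn1, Myl9, Myh11, Acta2 and Tpm2. The myofibroblast cluster was led by Aspn, Mustn1, P2ry14 and Enpp2, and the pericyte cluster by Cox4i2 and Higd1b.

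Smooth muscle stood highest for the 8 genes together, but pericytes came after myofibroblasts, which are not mural cells. Whether these smooth muscle cells came from blood vessels was not tested. The 8 genes together stood at 46656 CPM (45198 to 48148) in the 18 Cherry_negative smooth muscle cells. In myofibroblasts they stood at 9456 CPM (9287 to 9626) in the Cherry_positive and 8886 CPM (8582 to 9198) in the Cherry_negative library. Pericytes held 3090 CPM (2864 to 3329) and 4396 CPM (4034 to 4781). Alveolar fibroblasts followed with 1519 and 678 CPM, and adventitial fibroblasts with 528 and 769 CPM. Among these 5 classes, neighbours in this order did not overlap in their intervals, apart from the 678 CPM of Cherry_negative alveolar fibroblasts and the 769 CPM (698 to 846) of Cherry_negative adventitial fibroblasts, whose intervals met between 698 and 720 CPM.

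**Figure D1:**
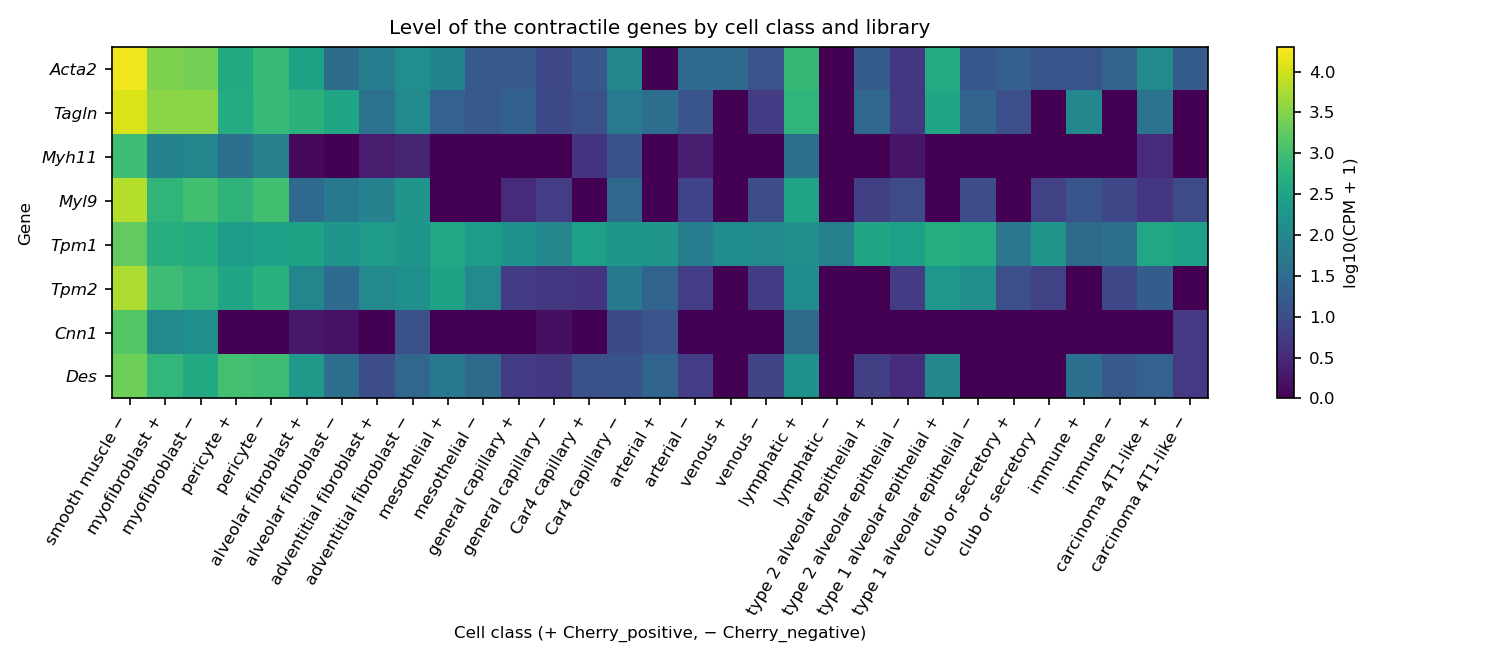
Level of each contractile gene (rows) in each cell class and library (columns, + for Cherry_positive and − for Cherry_negative), as log10 of CPM plus 1. Smooth muscle is brightest for every gene, pericytes reach the level of myofibroblasts for Myl9 and pass it for Des, and Tpm1 has colour in every column. The bright Cherry_positive lymphatic column rests on 1 cell, which held 285 of the 296 UMIs of the 8 genes in that class.

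The actin Acta2 was at 16118 CPM in Cherry_negative smooth muscle, where each of the 18 cells held between 8 and 201 UMIs of it. It was at 2875 CPM in Cherry_positive and 2566 CPM in Cherry_negative myofibroblasts, and at 410 and 792 CPM in pericytes. Outside the mesenchymal cells, 4 values above 90 CPM each came mostly from 1 cell. These were the Cherry_positive lymphatic, type 1 epithelial and carcinoma cells (100 of 102, 13 of 13 and 123 of 144 UMIs in 1 cell) and the Cherry_negative Car4 capillary cells (87 of 92).

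Few cells thus carried most of the Acta2 RNA. Myofibroblasts held 65.0% of the Acta2 UMIs of all kept Cherry_positive cells and 35.1% of those of the Cherry_negative cells. In the Cherry_negative library the 18 smooth muscle cells alone held 50.5%. A library's summed Acta2 therefore mixes classes that the libraries held in different numbers.

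The actin-binding proteins differed from each other in how widely they were found. Tagln was at 11399 CPM in Cherry_negative smooth muscle, and at 3584 CPM in Cherry_positive and 3594 CPM in Cherry_negative myofibroblasts. It was also found in alveolar fibroblasts, at 588 CPM in the Cherry_positive and 346 CPM in the Cherry_negative library, where pericytes had 437 and 792 CPM. Cnn1 was the narrower of them.

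Cnn1 was at 1456 CPM in Cherry_negative smooth muscle, with a UMI in 94.4% of the cells. Myofibroblasts had 112 CPM of Cnn1 in the Cherry_positive and 135 CPM in the Cherry_negative library, with a UMI in 17.8% and 10.4% of cells. None of the 62 Cherry_positive and 50 Cherry_negative pericytes held a Cnn1 UMI, which allows levels of up to 13.4 and 24.2 CPM (3 counts).

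The myosin genes marked smooth muscle and pericytes unevenly. Myh11 was at 927 CPM in Cherry_negative smooth muscle, against 83.3 and 93.7 CPM in Cherry_positive and Cherry_negative myofibroblasts and 35.7 and 72.7 CPM in pericytes. Myh11 was at the limit of detection in alveolar fibroblasts, with 1 UMI in 872 Cherry_positive and 0 in 466 Cherry_negative cells. Myl9 was at 6693 CPM in Cherry_negative smooth muscle.

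Pericytes reached the Myl9 level of myofibroblasts. Pericytes had 624 CPM (525 to 737) in the Cherry_positive and 986 CPM (819 to 1177) in the Cherry_negative library. Myofibroblasts had 655 CPM (612 to 701) and 995 CPM (895 to 1103).

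Des was higher in pericytes than in myofibroblasts in both libraries. Pericytes had 1017 CPM (889 to 1157) of Des in the Cherry_positive and 905 CPM (745 to 1089) in the Cherry_negative library, and 91.9% and 88.0% of them held a UMI. Myofibroblasts had 697 CPM (652 to 744) and 402 CPM (339.8 to 473). In type 2 alveolar epithelial cells, where desmin is not expected, 4.55% of Cherry_positive and 1.56% of Cherry_negative cells held a Des UMI, at median depths of 6844 and 8154 UMIs, against 3239 and 2018 UMIs in pericytes.

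The tropomyosins parted from each other. Tpm2 followed the other contractile genes, with 5934 CPM in Cherry_negative smooth muscle, 936 and 650.5 CPM in Cherry_positive and Cherry_negative myofibroblasts and 330 and 558 CPM in pericytes. Tpm1 reached 1854 CPM in Cherry_negative smooth muscle but was found in every class. It was at 327 CPM in Cherry_positive and 263 CPM in Cherry_negative type 2 epithelial cells, near its 294 and 179.8 CPM in alveolar fibroblasts. Of the Tpm1 UMIs of the Cherry_negative library, 40.7% came from type 2 epithelial cells.

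Profiles over 23 units, each a class in 1 library with at least 20 cells, show the same split. Pearson's r of log2(CPM + 10) lay between 0.81 and 0.90 for all pairs among Acta2, Tagln, Myh11, Myl9, Tpm2 and Des, between 0.53 and 0.72 for Cnn1 with these, and between 0.34 and 0.57 for Tpm1 with any other member. The units share libraries and depth, and smooth muscle is not among them. In some units, 1 cell held most UMIs of the 8 genes. These were Cherry_positive lymphatic cells (285 of 296), Cherry_negative Car4 capillary cells (236 of 438) and Cherry_positive immune cells (71.0% of 31). What these cells add to r was not tested. Of 7050 genes, Lmod1 (leiomodin 1, an actin-binding protein of smooth muscle and 1 of the 90 further contractile genes) was most like the mean profile of the 8, with r = 0.94. Pgf, P2ry14, Loxl3, Rem1, Nrtn, Col27a1, Ndufa11, Angptl2 and Ecm2 came next, with r between 0.84 and 0.87.

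Member by member, the nearest genes differed. Lmod1 was nearest to Acta2 (0.89), Myh11 (0.98), Myl9 (0.94) and Tpm2 (0.86), Hoxb6 to Tagln (0.88), Actg2 (the gamma-actin of enteric smooth muscle) to Cnn1 (0.93), Tbx5 to Des (0.91) and Polr2l, an RNA polymerase subunit, to Tpm1 (0.74). Next nearest were Pgf and Loxl3 for Acta2, Rem1 and Nrtn for Tagln, P2ry14 and Actg2 for Myh11, Ecm2 and Atp2b4 for Myl9, Arl2 and Arl3 for Tpm1, Loxl3 and Dtx3 for Tpm2, Ngb and Csmd1 for Cnn1, and Arhgap42 and Kcnk3 for Des. P2ry14 and Kcnk3 are markers that named the myofibroblast and pericyte classes.

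Within most classes the genes tended to vary together from cell to cell, and most so where counts were high. Some pairs hardly did, with a lowest r of 0.02 in Cherry_negative smooth muscle and -0.02 in Cherry_positive pericytes. Over the 18 Cherry_negative smooth muscle cells, r between 2 members had a median of 0.45. In myofibroblasts the median was 0.35 over 247 Cherry_positive and 0.30 over 134 Cherry_negative cells, and Acta2 with Tagln reached 0.73 and 0.62. In pericytes the median was 0.24 in each library. In alveolar fibroblasts, where counts are sparse, it was 0.14 in the Cherry_positive library. In the Cherry_negative library only 1 pair was found in enough cells, with r = 0.01.

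Myofibroblasts spanned a wide range. The 8 genes took between 0 and 596 of every 10000 UMIs of a Cherry_positive myofibroblast, with a median of 64.8, and between 0 and 351 with a median of 50.8 in Cherry_negative ones. Smooth muscle cells of the Cherry_negative library lay between 137 and 769, with a median of 439.8. Pericytes had medians of 21.6 and 22.3 in the Cherry_positive and Cherry_negative library and reached 194 and 279, so the highest myofibroblasts and the highest pericytes overlapped the smooth muscle cells.

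**Figure D2:**
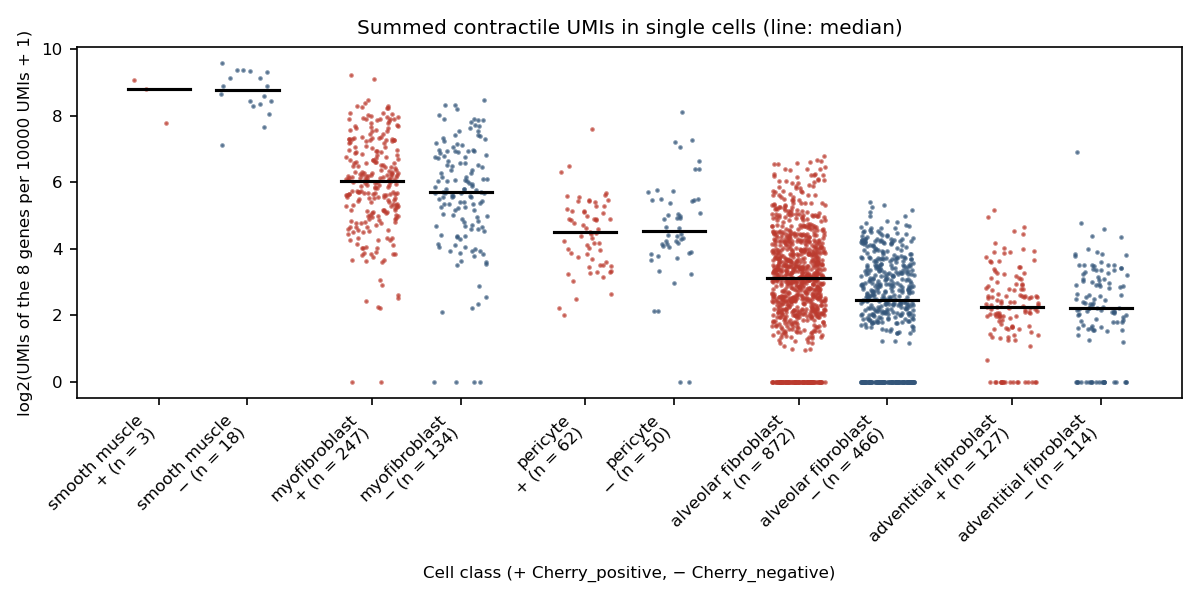
UMIs of the 8 genes per 10000 UMIs of each cell, as log2 of the value plus 1, by class and library (+ Cherry_positive, − Cherry_negative); each point is a cell and the line is the median. Smooth muscle is highest, myofibroblasts spread widest, and alveolar fibroblasts reach 109 per 10000 in the Cherry_positive library, against at most 41.6 in the Cherry_negative one.

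Between the libraries, Cherry_positive alveolar fibroblasts held more RNA of most of these genes, myofibroblasts differed little in sum, and pericytes held less Acta2, Tagln, Tpm2 and Myl9, where all but the Myl9 difference rested on few cells. A gene counted as measured in a class where the libraries together gave 10 or more UMIs of it, and as past 2-fold at a ratio, Cherry_positive over Cherry_negative, of at least 2 or at most 0.5. The sum of the 8 genes had a ratio of 2.24 (2.1 to 2.39) in alveolar fibroblasts, 1.06 (1.02 to 1.11) in myofibroblasts, 0.703 (0.627 to 0.788) in pericytes and 0.686 (0.60 to 0.785) in adventitial fibroblasts. Rescaling by the trimmed mean of all genes moved ratios up by 0.20 on the log2 scale in myofibroblasts, 0.27 in pericytes and 0.13 in alveolar fibroblasts, which is a shift of all genes. Myl9 had ratios under 1 in all 4 classes, 0.518 in alveolar fibroblasts, 0.659 in myofibroblasts, 0.633 in pericytes and 0.463 in adventitial fibroblasts, with each interval below 1, and no alternative gave a ratio above 0.789 in any of them.

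**Figure D3:**
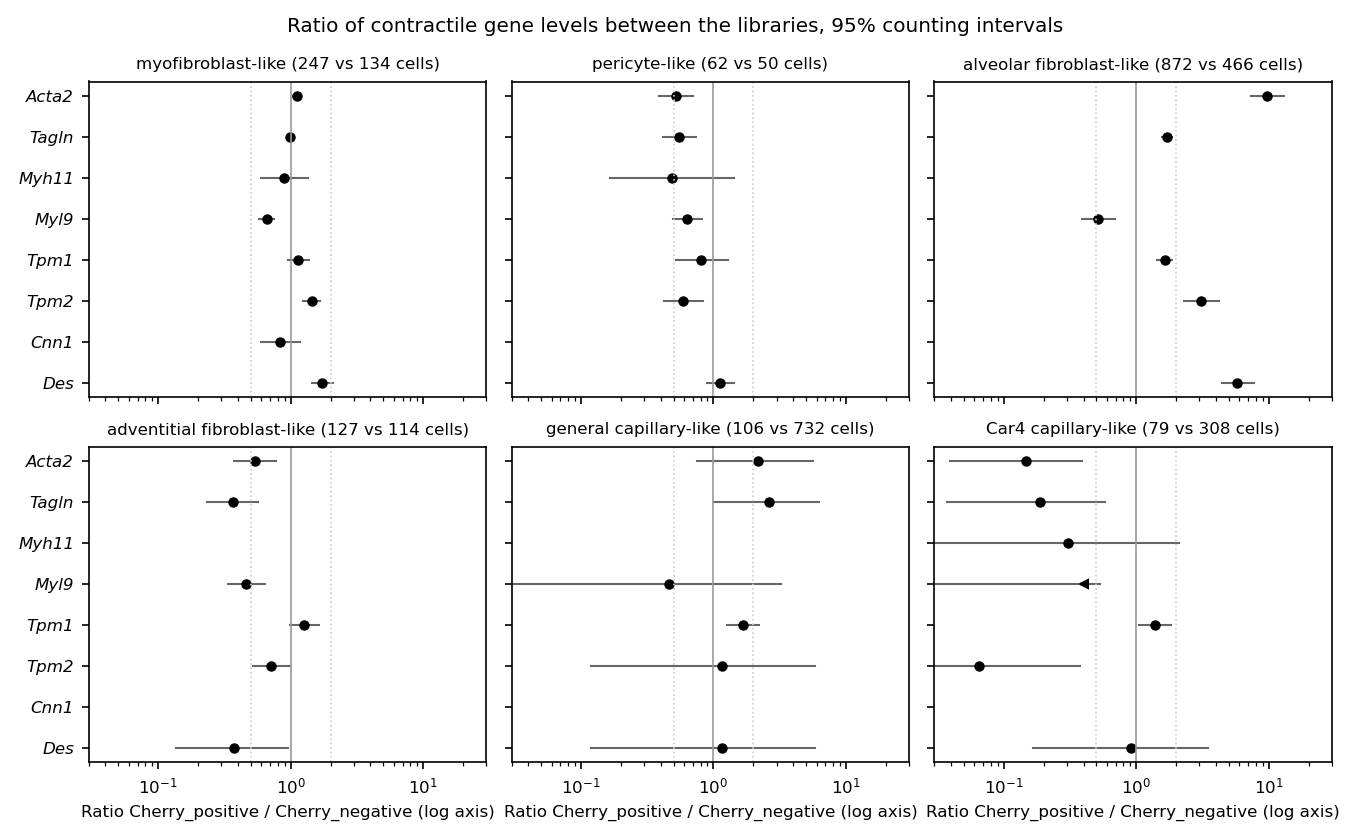
Ratio of each gene's level in Cherry_positive over Cherry_negative cells of 6 classes, on a log axis, with 95% counting intervals; dotted lines mark 2-fold either way and the triangle a bound against a count of 0. Acta2, Des and Tpm2 stand right of 2-fold in alveolar fibroblasts, while all ratios of myofibroblasts lie within 2-fold. The low ratios of Car4 capillary cells rest on 1 Cherry_negative cell.

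Alveolar fibroblasts are matrix-making cells of the alveolar wall. Acta2 stood at 309 CPM in their Cherry_positive cells, against 32.1 CPM in Cherry_negative ones, 1422 and 51 UMIs. Des stood at 204 and 35.2 CPM, and Tpm2 at 94.9 and 30.8 CPM. These 3 of the 6 measured members were past 2-fold higher, with ratios of 9.64 (7.29 to 13.0) for Acta2, 5.78 (4.41 to 7.71) for Des and 3.08 (2.29 to 4.23) for Tpm2, where 7.45% of the 11472 genes measured in the class were past 2-fold higher and 9.73% past 2-fold lower.

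The other measured members stayed within 2-fold. Tagln was at 588 and 346 CPM, a ratio of 1.70 (1.55 to 1.87), and Tpm1 at 294 and 179.8 CPM, a ratio of 1.64 (1.44 to 1.87). Myl9 went the other way, at 28.0 CPM in Cherry_positive and 54.1 CPM in Cherry_negative cells, a ratio of 0.518 (0.392 to 0.689). The median log2 ratio of the 6 was 1.20, against -0.07 over all genes.

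Myh11 and Cnn1, the genes narrowest to smooth muscle, did not reach 10 UMIs in these cells. Myh11 had 1 UMI in Cherry_positive and 0 in Cherry_negative cells, and Cnn1 had 4 and 1. Actc1, which led the smooth muscle cluster, had 1 and 0 UMIs. The 17 smooth muscle markers summed to 631 CPM in Cherry_positive and 1325 CPM in Cherry_negative cells, with 5 and 6 of them at 0. Most of that sum was Npnt, which also served as an alveolar fibroblast marker. In cells with under 3 Acta2 UMIs, Npnt held 511 of 670 CPM in the Cherry_positive and 1175 of 1337 CPM in the Cherry_negative library. The 16 pericyte markers summed to 186 and 241 CPM, with 0 and 1 at 0. The 14 myofibroblast markers summed to 967 and 889 CPM, with 1 and 4 at 0.

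Acta2 in Cherry_positive alveolar fibroblasts was concentrated in a minority of cells. At least 3 Acta2 UMIs were found in 101 of the 872 Cherry_positive cells (11.6%), and these held 89.2% of the Acta2 UMIs. In the Cherry_negative library 4 of 466 cells (0.858%) reached that count. After thinning every cell to 2000 UMIs, 17.1% of Cherry_positive and 4.95% of Cherry_negative cells held an Acta2 UMI, against 25.3% and 7.73% without thinning. Type 2 epithelial cells, which should lack Acta2, held one in 9.09% and 0.224% after thinning (2 of 22 Cherry_positive and 1 of 446 Cherry_negative cells), and general capillary cells in 1.96% and 1.69%. Median depths were 4513 and 3123 UMIs in alveolar fibroblasts and 3482 and 2289 UMIs in general capillary cells.

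A Tpm2 UMI was found in 62.4% of the 101 Cherry_positive cells with at least 3 Acta2 UMIs and in 14.8% of the 771 others, a Tagln UMI in 87.1% and 49.4%, and a Des UMI in 48.5% and 26.6%. No Myh11 UMI was found in the 101 cells. They were deeper, with a median of 8219 UMIs against 4196 in the others, so these shares do not compare cells of equal depth.

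By level, the 101 cells had 306 CPM of Tpm2, 1395 of Tagln, 288 of Des and 49.9 of Myl9, against 43.5, 392, 183 and 22.7 CPM in the 771 others. Their alveolar fibroblast markers were lower, with Tcf21 at 131 CPM against 449 in the others and Inmt at 725 against 3846. The 14 myofibroblast markers summed to 1022 CPM in them and 954 CPM in the others. Among these markers, Hhip and Aspn stood lower, at 11.1 and 5.54 CPM against 27.3 and 13.8, and Enpp2 higher, at 29.9 against 20.8. Actg2, a thin filament gene that is not among these markers, stood at 3.33 against 1.89 CPM. All Cherry_positive cells of the class held 111 UMIs of Hhip, 56 of Aspn and 10 of Actg2, so these values rest on few counts. The 16 pericyte markers summed to 231 and 175 CPM. Fst (follistatin, an inhibitor of activins) was at 717 CPM and Tnc (the matrix protein tenascin C) at 418 CPM, against 56.2 and 191 CPM. Cells were picked by Acta2 here, so this is a description of them.

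Of the 101 cells, 83 lay in cluster 2, 16 in cluster 8 and 2 in cluster 5. Alveolar fibroblasts formed 4 clusters that the libraries filled unequally, with 382 Cherry_positive and 7 Cherry_negative cells in cluster 2, 233 and 105 in cluster 5, 46 and 262 in cluster 7, and 211 and 92 in cluster 8. Cluster 2 was led by Fam26f, Cxcl10, Ccl2, Timp1, Saa3 and Tnc, none of them an alveolar fibroblast marker, although 9 of those markers were detected in it. Cluster 7 was led by Slc7a10 and Tcf21, which are such markers.

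In cluster 2, Cherry_positive cells had 464 CPM of Acta2, 314 of Des and 139 of Tpm2. The 7 Cherry_negative cells of cluster 2 held 0 Acta2, 4 Des and 1 Tpm2 UMIs, which leaves the libraries hard to compare there. Without cluster 2, an alternative chosen after seeing the data, the ratio was 4.20 for Acta2, 2.43 for Des, 1.52 for Tpm2, 1.18 for Tagln and 1.45 for the sum of the 8.

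Clusters 5 and 8, where each library had at least 92 cells, gave ratios on both sides of 1. In cluster 8, Acta2 was at 242 CPM in Cherry_positive and 84.6 CPM in Cherry_negative cells, a ratio of 2.86 (2.0 to 4.22). In cluster 5, Acta2 was at 34.0 and 32.1 CPM, a ratio of 1.06 (0.521 to 2.33). In cluster 5 Des was at 146 CPM in Cherry_positive and 49.6 CPM in Cherry_negative cells, a ratio of 2.94 (1.77 to 5.19).

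Tagln had an interval above 1 in both, at 1.58 (1.31 to 1.93) in cluster 5 and 1.65 (1.23 to 2.24) in cluster 8, as did Tpm1 in cluster 8, at 1.33 (1.05 to 1.69). Des in cluster 8 and Tpm1 in cluster 5 had intervals that span 1, at 1.65 (0.756 to 4.12) and 1.13 (0.870 to 1.47), and the difference between clusters was not tested. Tpm2 had ratios of 0.925 (0.474 to 1.91) in cluster 5 and 0.884 (0.557 to 1.44) in cluster 8, intervals that both span 1. Myl9 was lower in Cherry_positive cells of cluster 5, at 21.3 and 49.6 CPM, and of cluster 8, at 50.3 and 149 CPM, with ratios of 0.429 (0.213 to 0.871) and 0.337 (0.229 to 0.494). The part that the uneven clusters or the depth play in the class ratios was not tested.

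**Figure D4:**
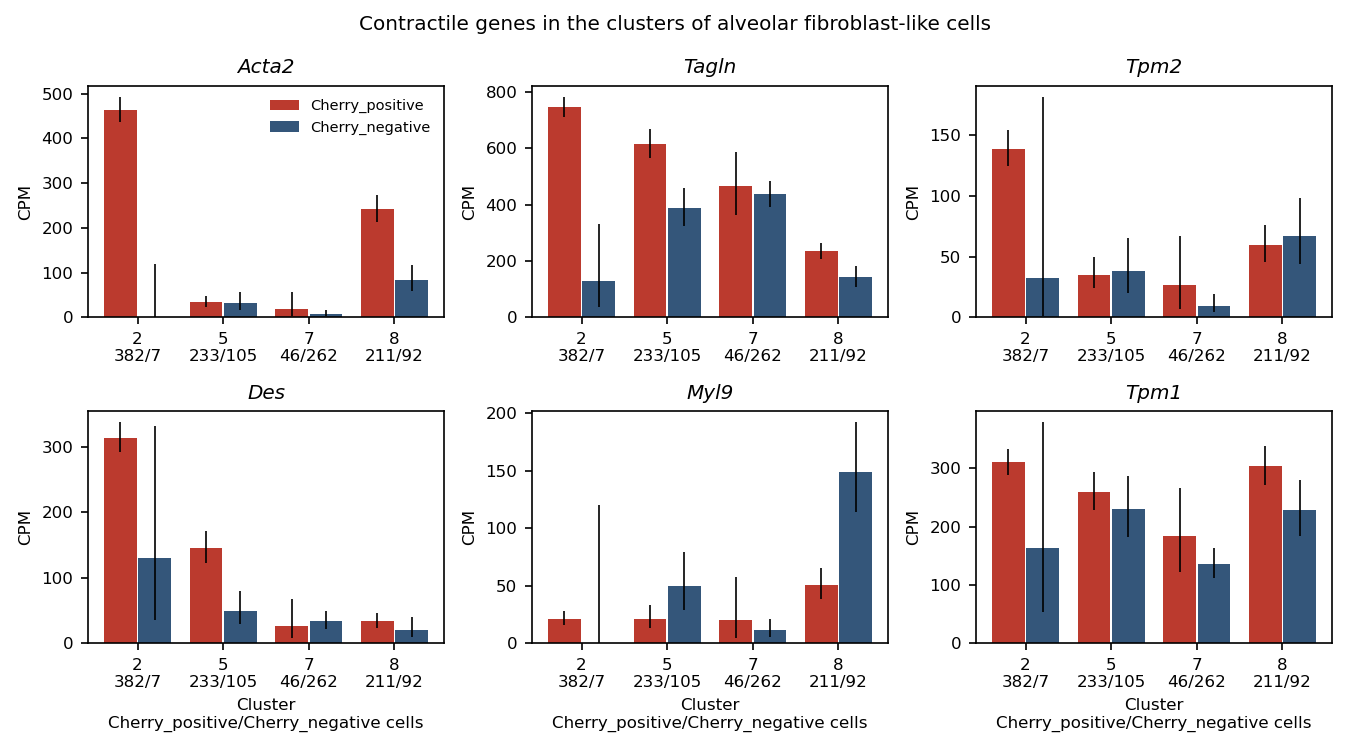
Levels (CPM) of 6 contractile genes in the 4 clusters of alveolar fibroblasts, with 95% Poisson intervals; the numbers under each cluster are its Cherry_positive and Cherry_negative cells. Acta2 is highest in Cherry_positive cells of cluster 2 (464 CPM) and cluster 8 (242 CPM), Des in those of clusters 2 and 5, and Myl9 in Cherry_negative cells of cluster 8 (149 CPM).

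Acta2, Myl9, Tpm1, Tpm2, Cnn1 and Des had an entry among the RefSeq promoters (GRCm38.p6), of which the 250 bases before the start were searched. Serum response factor (SRF), which drives many muscle genes, binds the CArG box, CC and GG around 6 A or T letters. The matches in Acta2 and Myl9 are shown, because these genes differed in opposite directions in alveolar fibroblasts, beside the window of Des, which was higher there and held no match. The Acta2 stretches lie at chr19:34255438-34255467 and chr19:34255388-34255417 (minus strand), the Myl9 stretch at chr2:156775214-156775419 (plus strand) and the Des window at chr1:75360042-75360291 (plus strand). The GENCODE M21 annotation places an Acta2 5′ UTR over 217 bases of the Acta2 window, since a GENCODE transcript starts further upstream than the RefSeq one. It also places UTR over 193 bases of the Tpm1, 106 of the Tpm2, 44 of the Myl9 and 37 of the Cnn1 window. These windows are thus in part annotated as transcribed. The Myl9 and Des stretches hold no annotated exon. Sequences run 5′ to 3′, and capitals mark CArG boxes and CArG-like sites, which have 1 G or C among the 6 letters.

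Acta2, upper site: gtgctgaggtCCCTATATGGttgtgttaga
Acta2, lower site: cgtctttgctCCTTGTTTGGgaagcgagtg
Myl9: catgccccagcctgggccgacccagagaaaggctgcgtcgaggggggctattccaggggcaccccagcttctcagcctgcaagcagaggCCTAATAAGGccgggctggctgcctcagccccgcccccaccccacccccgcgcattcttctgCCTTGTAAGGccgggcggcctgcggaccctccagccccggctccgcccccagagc
Des: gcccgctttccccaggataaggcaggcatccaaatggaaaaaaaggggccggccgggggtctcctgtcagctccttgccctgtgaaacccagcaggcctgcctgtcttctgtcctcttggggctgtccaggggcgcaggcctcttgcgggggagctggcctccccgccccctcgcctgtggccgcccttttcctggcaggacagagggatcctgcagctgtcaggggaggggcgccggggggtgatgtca

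The Acta2 window held 2 CArG-like sites, CCCTATATGG 84 bases and CCTTGTTTGG 34 bases before the start. The Myl9 window held the CArG box CCTAATAAGG at 161 bases and the CArG-like CCTTGTAAGG at 99 bases before the start. The Des, Tpm2, Tpm1 and Cnn1 windows held neither. Of all 32851 promoter windows of that length, 1.47% held a CArG box and 8.59% a CArG box or CArG-like site.

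Sites were found both in Acta2, which was higher in Cherry_positive alveolar fibroblasts, and in Myl9, which was lower. Whether the sites bear on the ratios was not tested. The MCAT motif bound by TEAD factors (CATTCC or, on the other strand, GGAATG) was found in the Acta2 window, 146 bases before the start, and in the Tpm1 window, 56 bases before it. It overlapped no CArG site, and 12.6% of all windows held it. These are matches of letters, not measured binding.

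Myofibroblasts differed little between the libraries. None of the 8 members was past 2-fold, where 8.25% of the 8853 genes measured in the class were past 2-fold higher and 11.6% past 2-fold lower. Acta2 was at 2875 and 2566 CPM, a ratio of 1.12 (1.04 to 1.21), and Tagln at 3584 and 3594 CPM, a ratio of 0.997 (0.937 to 1.06). Myh11, Cnn1 and Tpm1 had intervals that span 1, with ratios of 0.889 (0.599 to 1.35), 0.826 (0.593 to 1.17) and 1.14 (0.961 to 1.36).

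Within the 2-fold bounds, Des and Tpm2 were higher and Myl9 lower in Cherry_positive myofibroblasts. Des was at 697 and 402 CPM, a ratio of 1.73 (1.45 to 2.08). Tpm2 was at 936 and 650.5 CPM, a ratio of 1.44 (1.25 to 1.66). Myl9 was at 655 and 995 CPM, a ratio of 0.659 (0.581 to 0.747). An alternative chosen after seeing the data left out cells with at least 30 UMIs of the 8 genes. It dropped 126 of 247 Cherry_positive and 37 of 134 Cherry_negative myofibroblasts. Des then had a ratio of 1.13 (0.847 to 1.52) and Tpm2 of 1.20 (0.890 to 1.63). Tagln stood at 0.641 (0.563 to 0.730) and Myl9 at 0.574 (0.448 to 0.735). The cut uses raw UMIs of these same genes in libraries of unequal depth, so no direction is read from these ratios.

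The direction of the sum in myofibroblasts depended on where smooth muscle cells were placed. At a clustering resolution of 0.5, and with each library clustered by itself, all 21 smooth muscle cells joined the myofibroblasts, and the summed ratio was 0.610 and 0.622 in place of 1.06. Tpm2 turned with it, to 0.591 and 0.60, and Des to 0.940 and 0.948. Actc1, which led the smooth muscle cluster, had 0 UMIs in Cherry_positive and 7 in Cherry_negative myofibroblasts. The 17 smooth muscle markers summed to 2796 and 4490 CPM with 6 at 0 in each library. They include Mustn1, which is also a myofibroblast marker and a leading gene of the myofibroblast cluster. The sum therefore does not measure smooth muscle alone. Median depths were 4327 and 2441 UMIs.

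Pericytes of the Cherry_positive library had lower levels of 6 of the 7 measured members. Acta2 was at 410 and 792 CPM, a ratio of 0.518 (0.385 to 0.696), and Tagln at 437 and 792 CPM, a ratio of 0.552 (0.413 to 0.738). Myh11, with 8 and 9 UMIs, was the 1 member past 2-fold lower, at 0.490 (0.165 to 1.43), an interval that spans 1. In this class 10.2% of the 5003 genes measured were past 2-fold higher and 11.4% past 2-fold lower.

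Desmin stood apart from the other genes in pericytes. Des was at 1017 and 905 CPM, a ratio of 1.12 (0.892 to 1.42). Tpm2 had a ratio of 0.592 (0.420 to 0.834), Myl9 of 0.633 (0.493 to 0.814) and Tpm1 of 0.812 (0.522 to 1.28), an interval that spans 1. The direction for Acta2 and Tagln rested on few cells, while that for Myl9 did not.

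In the Cherry_positive library, 4 of 62 pericytes with at least 30 UMIs of the 8 genes held 45 of the 92 Acta2 UMIs and 35 of the 98 Tagln UMIs. In the Cherry_negative library, 6 of 50 such pericytes held 94 of 98 and 80 of 98. Among the remaining 58 and 44 cells, Acta2 had 47 and 4 UMIs, a ratio of 5.98 (2.19 to 22.9), Tagln a ratio of 1.78 (1.04 to 3.20), Tpm2 one of 0.886 (0.541 to 1.48), Myl9 one of 0.618 (0.459 to 0.835) and the sum one of 1.01. That alternative was chosen after seeing the data.

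The share of cells ran against the class level. An Acta2 UMI was found in 45.2% of Cherry_positive and 16.0% of Cherry_negative pericytes, and in 35% and 26.9% after thinning to 2000 UMIs, which 60 and 26 cells reached. Since share and level disagree, no order is read from the share. Actc1 had 0 UMIs in pericytes of each library, and the 17 smooth muscle markers summed to 553 and 768 CPM, with 11 and 12 at 0. Among the 6 Cherry_negative cells, the highest held 49 UMIs of the pericyte marker Cox4i2 and the other 5 between 3 and 40.

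Adventitial fibroblasts, which surround larger vessels and airways, had low levels throughout. Tagln, Myl9 and Des were past 2-fold lower in their Cherry_positive cells, 3 of 6 measured members, where 5.80% of the 8793 genes measured were past 2-fold higher and 7.55% past 2-fold lower. Tagln was at 39.9 and 108 CPM, a ratio of 0.369 (0.235 to 0.571) that was 0.00916 after subtracting 5% free RNA, Myl9 at 80.9 and 175 CPM, a ratio of 0.463 (0.335 to 0.637), and Des at 9.38 and 25.2 CPM, a ratio of 0.372 (0.135 to 0.951). Acta2 had a ratio of 0.540 (0.374 to 0.775), Tpm2 of 0.716 (0.523 to 0.982) and Tpm1 of 1.26 (0.986 to 1.63).

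Again 1 cell weighed heavily. A single Cherry_negative adventitial fibroblast held 132 of the 427 UMIs of the 8 genes in that library (30.9%), among them 35 of Tagln and 12 of Des. With that cell left out in the Cherry_negative library, and no cell of the Cherry_positive one reaching 30 such UMIs, Acta2 had a ratio of 1.0 (0.651 to 1.55), Tagln of 0.868 (0.503 to 1.52), and Des, with 8 and 2 UMIs, of 2.55 (0.510 to 24.7). Myl9 alone kept an interval below 1, at 0.580 (0.412 to 0.814).

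Capillary endothelial cells hold little contractile RNA. In general capillary cells, Acta2 had 7 UMIs in 106 Cherry_positive and 15 in 732 Cherry_negative cells, a ratio of 2.16 (0.747 to 5.64), and Tagln 9 and 16, a ratio of 2.61 (1.02 to 6.27) that was 1.56 under the stricter cell filter and 1.55 after thinning. These 2 genes were past 2-fold higher and Myl9, with 1 and 10 UMIs, past 2-fold lower at 0.464 (0.0107 to 3.26), which makes 3 of 6 measured members, where 14.1% of 9644 genes were past 2-fold either way. Tpm1 had a ratio of 1.68 (1.26 to 2.21).

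In Car4 capillary cells, 5 of 7 measured members were past 2-fold lower, where 4.49% of 8244 genes were past 2-fold higher and 7.64% past 2-fold lower. Acta2 had 4 and 92 UMIs, a ratio of 0.147 (0.0391 to 0.388), Tagln 3 and 54, and Tpm2 1 and 52. A single Cherry_negative cell of 13134 UMIs, with 46 UMIs of Car4 and 11 of the smooth muscle marker Actc1, held 236 of the 438 UMIs of the 8 genes. With it left out, Acta2 had 4 and 5 UMIs, a ratio of 2.66 (0.528 to 12.4), and none of the 8 kept an interval below 1. So few doublets were called that some may remain, and whether this barcode is one was not tested.

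The 90 further contractile genes form 9 lists by role. In alveolar fibroblasts 73 were measured, 9 past 2-fold higher and 8 past 2-fold lower, with a median log2 ratio of 0.09 against -0.07 over all genes. In myofibroblasts 72 were measured, with 5 higher and 6 lower, in pericytes 53 with 1 and 5, and in adventitial fibroblasts 64 with 2 and 8. In general capillary cells 57 were measured, with 1 higher and 1 lower, and in Car4 capillary cells 52 with 1 and 2. Over all genes, 7.45% were past 2-fold higher and 9.73% lower in alveolar fibroblasts, 8.25% and 11.6% in myofibroblasts, 10.2% and 11.4% in pericytes, 5.80% and 7.55% in adventitial fibroblasts and 4.49% and 7.64% in Car4 capillary cells, with 14.1% either way in general capillary cells. The lists' shares lay below these in all 6 classes, apart from both directions in alveolar fibroblasts and the lower direction in adventitial fibroblasts, where they lay above. The counts are small, and no share was tested against that of all genes. Of the 9 higher in alveolar fibroblasts, Actg2 (10 and 1 UMIs), Jag1 (12 and 1) and Notch3 (18 and 3) had intervals that span 1. The 8 lower all had intervals below 1.

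In alveolar fibroblasts more of the thin filament and dense body genes were higher than lower. Of 8 measured thin filament genes, 7 had ratios over 1 and 2 were past 2-fold. Cnn3, a calponin of non-muscle cells, was at 380.3 CPM in Cherry_positive and 166 CPM in Cherry_negative cells, a ratio of 2.29 (2.01 to 2.62). The most abundant of them were within 2-fold, Actb (cytoplasmic beta-actin) at 5110.5 and 3357 CPM, Actg1 at 1828 and 1380.3 CPM and Cald1 (caldesmon) at 722 and 443 CPM.

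Of 15 measured genes of dense bodies, adhesion and linkers, 4 were past 2-fold higher and 1 lower. Pdlim7 had a ratio of 2.82 (2.24 to 3.59), Csrp2 of 2.64 (1.93 to 3.69), Itga5 (the alpha subunit of a fibronectin receptor) of 2.11 (1.28 to 3.70) and the actin crosslinker Actn1 of 2.02 (1.69 to 2.43). Itga8, an integrin subunit that also served as an alveolar fibroblast marker, was at 148 and 418 CPM, a ratio of 0.354 (0.318 to 0.394).

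The vasoactive receptors went the other way. All 6 measured vasoactive receptors had ratios under 1, and 3 were past 2-fold lower, with a median log2 ratio of -1.21. The alpha-adrenergic receptors Adra1a and Adra1b were at 8.91 and 21.9 CPM in Cherry_positive and 43.4 and 65.4 CPM in Cherry_negative cells, ratios of 0.205 (0.136 to 0.307) and 0.336 (0.253 to 0.446). Ppp1r14a, an inhibitor of myosin phosphatase, was at 434 and 1177 CPM, a ratio of 0.369 (0.346 to 0.393).

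Other lists were mixed in alveolar fibroblasts. Synm (synemin, a partner of desmin) had a ratio of 0.350 (0.256 to 0.479), while the intermediate filament gene Vim was at 1409.9 and 1116 CPM. Fhl1 had a ratio of 0.395 (0.376 to 0.416), Abcc9, a channel subunit, of 0.480 (0.252 to 0.934), and Pdgfrb, a growth factor receptor that also served as a pericyte marker, of 2.90 (1.63 to 5.62). Srf itself was at 20.2 and 17.0 CPM, a ratio of 1.19 (0.768 to 1.90), and was named after its values were seen.

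**Figure D5:**
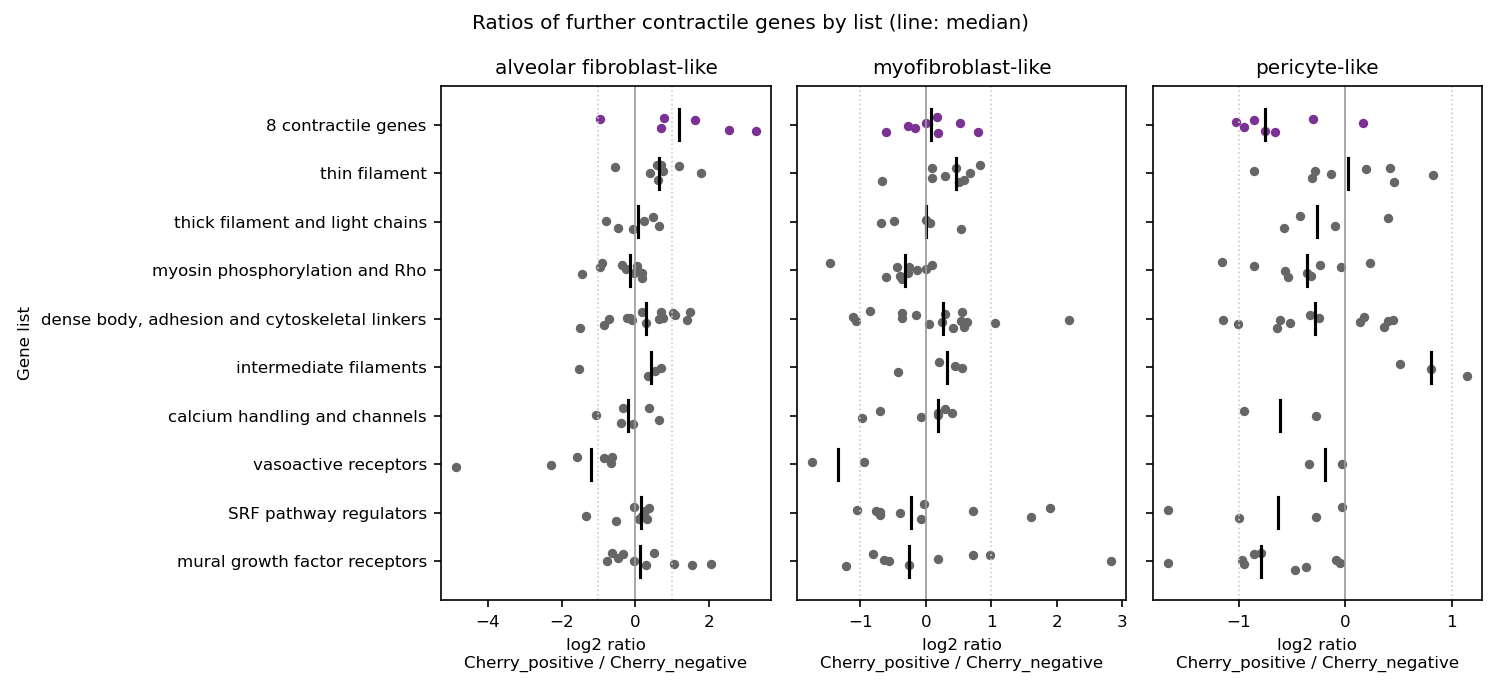
Log2 ratio, Cherry_positive over Cherry_negative, of the measured genes of each list in 3 classes, with the 8 contractile genes on top; each point is a gene and the line the list's median, and dotted lines mark 2-fold. In alveolar fibroblasts the 6 measured of the 8 genes have a median of 1.20 and the vasoactive receptors one of -1.21. In pericytes the 7 measured of the 8 genes have a median of -0.76.

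Other classes had few named genes past 2-fold. In myofibroblasts Itga5, with 48 and 3 UMIs, had a ratio of 4.56 (1.47 to 22.9) and Actn1 one of 2.07 (1.28 to 3.54), so both were past 2-fold higher there and in alveolar fibroblasts. Nexn, Synpo2, Acvrl1, Ppp1r12b and Ednrb were past 2-fold lower in myofibroblasts, with ratios between 0.300 and 0.475. Ednrb also served as a Car4 capillary marker. In pericytes Fhl1 had a ratio of 0.315 (0.141 to 0.671), Vcl (vinculin) of 0.451 (0.228 to 0.882) and Actn1 of 0.497 (0.248 to 0.989).

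The remaining 3 named genes were Csrp1 in adventitial fibroblasts, at 0.488 (0.419 to 0.569), Itga5 there, at 2.70 (1.16 to 7.30), and Srf in Car4 capillary cells, with 16 and 22 UMIs and a ratio of 2.45 (1.20 to 4.89). Mylk, the kinase that phosphorylates the light chain coded by Myl9, was at 265 CPM in Cherry_positive and 498 CPM in Cherry_negative alveolar fibroblasts. It was at 437 and 524 CPM in myofibroblasts and at 441 and 453 CPM in pericytes, within 2-fold in all 3 classes.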

How the data were processed

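The deposited values are raw UMI counts for each gene in each barcode of 2 libraries, made by the authors with Cell Ranger 2.1.1 and mm10, with Seurat 4.0.2 and R 4.0.3 also named, per the submitters' processing notes. No further parameters are stated there. The 8 genes and all lists were chosen with earlier results of these data known.

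Barcodes needed 500 or more genes and at most 10% mitochondrial UMIs, which removed 56 of the Cherry_positive and 50 of the Cherry_negative library. Scrublet (scanpy 1.11.5, expected rate 2%) called 4 (0.226%) and 7 (0.249%) doublets, which were removed; the rate lies far under the expected one, and doublets may remain. Both libraries (1766 and 2804 cells) went into 1 clustering on 2000 variable genes without the 98 contractile genes, with 30 principal components, 15 neighbours and leidenalg 0.10.2 at resolution 1 and seed 0, into 20 clusters. A class needed at least 3 detected markers, each in 10% of cells and at 10% of its highest cluster level. A cluster of mixed leukocyte genes was kept as immune. The markers Trbc1, Vegfd and Ccl21a could not be used. A class was compared if it had 50 or more cells on each side, and described if it had 5 or more.

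UMIs were summed per class and library. Ratios have the exact binomial interval, levels the exact Poisson interval and shares of cells the exact binomial (Clopper-Pearson) one, all at 95%. A count of 0 was set against a floor of 3 counts. The ratio step was tested on simulated class sums. These had no spread between cells, so they do not cover ratios that rest on few cells. From other lists, genes past 2-fold with at least 30 UMIs and an interval off 1 were named, at most 4 per list and class, with up to 3 of the most abundant. Alternatives were no cell filter, a stricter one (at least 1000 genes, at most 5% mitochondrial UMIs), doublets kept, resolution 0.5 and 2, contractile genes kept for clustering, separate clustering, shared barcodes left out, 5% free RNA subtracted, trimmed mean scaling, the top cell left out, means of per-cell CPM, thinning to 2000 UMIs, at least 30 UMIs and a 1.5-fold bound. Promoter windows are from RefSeq. Python 3.11.15, numpy 2.4.6, scipy 1.17.1, pandas 2.3.3 and matplotlib 3.10.9 were used.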

Additional observations from a re-analysis of the deposited data

Results flagged for a closer look

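For 4 of the genes, the ratio of Cherry_positive over Cherry_negative cells lay past 2-fold in opposite directions in 2 cell classes, with both intervals off 1. With 1 library per group the difference between classes was not tested. Acta2 had a ratio of 9.64 in alveolar fibroblasts and 0.147 in Car4 capillary cells. Tpm2 had a ratio of 3.08 in alveolar fibroblasts and 0.0649 in Car4 capillary cells. Tagln had a ratio of 2.61 in general capillary cells, from 9 and 16 UMIs, against 0.187 in Car4 capillary cells and 0.369 in adventitial fibroblasts. The 2.61 was 1.56 under the stricter cell filter and 1.55 after thinning, within 2-fold. Des had a ratio of 5.78 in alveolar fibroblasts and 0.372 in adventitial fibroblasts.

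The side below 1 rested on 1 Cherry_negative cell in each of these pairs. Without the Car4 capillary cell that held 236 UMIs of the 8 genes, Car4 capillary cells had ratios of 2.66 for Acta2, 1.66 for Tagln and 0.666 for Tpm2, from at most 6 UMIs in either library. Without the adventitial fibroblast that held 132, adventitial fibroblasts had ratios of 2.55 for Des and 0.868 for Tagln. The ratios of alveolar fibroblasts did not rest on 1 cell, since the highest of their Cherry_positive cells held 2.13% of the UMIs of the 8 genes. However, 53 of 872 Cherry_positive and 0 of 466 Cherry_negative cells held at least 30 such UMIs. Those 53 held 974 of the 1422 Acta2 UMIs. Without them, chosen after seeing the data, ratios were 3.48 (2.60 to 4.75) for Acta2 and 4.13 (3.13 to 5.53) for Des. Tpm2 stood at 1.60 (1.17 to 2.24) and Tagln at 1.11 (1.01 to 1.23). The cut is on raw UMIs, and depth differed.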

How the results depend on the processing

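No paired analysis was possible because each group is 1 library and no sample label gives replicate numbers. Leaving out the top cell of each class and library turned the direction in Car4 capillary cells for Acta2 (2.71), Tagln (1.70) and Myh11 (1.13), and in adventitial fibroblasts for Des (2.26). Leaving out all cells of at least 30 UMIs of the 8 genes, chosen after seeing the data, gave 2.66, 1.66, 1.11 and 2.55 for these, and thinning to 2000 UMIs gave 1.47 for Myh11 in Car4 capillary cells. Of the gene and class pairs, 15 were past 2-fold, against 8 with the top cell left out, 8 with means of per-cell CPM, 8 after thinning, 8 with at least 30 UMIs and 26 at 1.5-fold.

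The summed ratio of 2.24 in alveolar fibroblasts was 2.46 with trimmed mean scaling, 1.94 with per-cell means, 1.96 thinned, 1.45 without cluster 2 and 1.44 without cells of at least 30 UMIs. The 1.06 of myofibroblasts was 0.941 with the stricter filter, 0.610 at resolution 0.5 and 0.622 with separate clustering, where the 21 smooth muscle cells joined them. It was 1.02 at resolution 2, 1.02 with contractile genes kept, 1.22 with trimmed mean scaling and 1.17 with per-cell means. The 0.703 of pericytes was 0.847 with trimmed mean scaling, 0.479 thinned and 1.01 without cells of at least 30 UMIs. The 0.686 of adventitial fibroblasts was 0.588 with separate clustering, 0.582 after free RNA subtraction, 0.920 without the top cell, 0.864 with per-cell means, 0.802 thinned and 0.974 without cells of at least 30 UMIs. Other causes were not tested. Myh11 and Cnn1 had under 10 UMIs in most classes outside smooth muscle and myofibroblasts, too few for a ratio at this depth.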
